A study of Mus musculus with 60 samples.

Results

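The insulin-like growth factor genes described here were Igf1, its receptor Igf1r, the receptor Igf2r and the binding protein genes Igfbp2, Igfbp3, Igfbp4, Igfbp5 and Igfbp6. They were taken by symbol, and these are 8 of the 55414 genes in the deposited table. The set was selected on measured values of Igfbp4, whose level in ribosome-bound RNA had been seen to differ among the groups. Its values in those samples are therefore given as a description with no test, while the other 7 genes, and Igfbp4 in bulk tissue, were tested.

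The tissue was medial prefrontal cortex (mPFC) from the inbred strain DBA2/J, in mice with GFP-L10a, in which a fluorescent protein is joined to part of the ribosome. IP libraries hold the RNA recovered with an antibody against GFP, from cells the labels call aPVT projectors, and Input libraries hold RNA of bulk mPFC. The groups were the subtypes SA, SA:ANH, ANH and RES, and NS, each with 6 IP and 6 Input libraries, 60 in all. The series describes social defeat stress over 5 days but does not say which groups received it, and the group names are not spelled out. Strain and tag were the same in all groups. The sources used here do not state the route of the tag into the cells or the age and sex of the mice. They do not say whether 6 libraries meant 6 mice, so the p-values rest on a spread among libraries that could be technical.

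Library totals ran from 19078906 to 27073413 counts. Levels are CPM, which are counts relative to the library total after TMM scaling, and fold changes are log2 values with their standard error (SE). Adjusted p-values are those of the edgeR quasi-likelihood test after Benjamini-Hochberg correction over all genes tested, and a gene passed below 0.05. Ranges of groups that do not overlap are given as a description, without the share of all genes that separate so. The labelled neuron class was checked against markers of layer 5 cells that project below the cortex (Bcl11b, Fezf2, Pou3f1, Parm1 and Crym, 5 of 5 found). Their summed level was 612 to 1157 CPM as group means in IP and 516 to 534 CPM in Input, and 5 of 5 were higher in IP by edgeR. Markers of layer 6 corticothalamic cells (Foxp2, Tle4, Syt6, Rprm and Ctgf, 5 of 5 found) summed to 51.3 to 81.7 CPM in IP and 286 to 330 CPM in Input, and 5 of 5 were lower in IP. Markers of astrocytes summed to 36.5 to 83.3 CPM in IP and 763 to 838 CPM in Input, and those of microglia to 5.52 to 7.78 CPM in IP and 278 to 313 CPM in Input.

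Insulin-like growth factors are secreted peptides that act through the receptor tyrosine kinase encoded by Igf1r, which signals through insulin receptor substrate adaptors, PI3K and Akt. The product of Igf2r has no kinase: it binds IGF2 and mannose 6-phosphate and carries them to lysosomes. The binding proteins are secreted carriers that hold the ligands away from the receptor, lengthen their life outside the cell and release them when proteases cut the carrier. In the brain these ligands are known for their part in neuronal growth, survival and myelination.

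Promoters are shown for 4 binding protein genes: Igfbp4, whose IP level had the widest separation of groups, and Igfbp2, Igfbp5 and Igfbp6, which all rose in SA:ANH IP. Each is the 150 bases before the gene's start, 5′ to 3′ on the gene's strand, from RefSeq on GRCm38.p6. Capitals mark motif matches.
Igfbp4, chr11:99041094-99041243, plus strand: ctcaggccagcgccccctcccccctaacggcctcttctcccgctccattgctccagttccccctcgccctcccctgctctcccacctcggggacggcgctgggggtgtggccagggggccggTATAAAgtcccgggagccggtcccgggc
Igfbp2, chr1:72824330-72824479, plus strand, the upstream of its 2 annotated starts: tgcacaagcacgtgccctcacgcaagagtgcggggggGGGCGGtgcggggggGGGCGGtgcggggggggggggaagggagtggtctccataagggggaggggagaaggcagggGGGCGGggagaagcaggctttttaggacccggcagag
Igfbp5, chr1:72874866-72875015, minus strand: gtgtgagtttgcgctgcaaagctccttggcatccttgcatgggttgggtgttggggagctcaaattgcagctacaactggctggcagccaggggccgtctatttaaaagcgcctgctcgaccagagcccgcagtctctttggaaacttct
Igfbp6, chr15:102144036-102144185, plus strand: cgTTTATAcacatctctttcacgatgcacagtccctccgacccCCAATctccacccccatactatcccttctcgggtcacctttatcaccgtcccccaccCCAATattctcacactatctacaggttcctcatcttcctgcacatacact
The motifs searched, on both strands, were the GC box GGGCGG, the TATA box TATAAA, the cyclic AMP response element core TGACGT, the FOXO site TGTTTAC, the glucocorticoid receptor half-site TGTTCT and the CCAAT motif. The Igfbp4 window held 1 TATA box and was 73.3% G or C, against a median of 54% over 32851 starts. The Igfbp2 window held 3 GC boxes, the Igfbp5 window held none of these motifs, and the Igfbp6 window held 1 TATA box, on the opposite strand, and 2 CCAAT motifs. Among all starts the share of windows with a match was 28.6% for the GC box, 7.57% for the TATA box, 5.15% for the response element core, 24.5% for CCAAT, 1.80% for the FOXO site and 9.62% for the receptor half-site. A match describes the letters only. All 8 genes had an entry in the RefSeq table.

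Per length of gene model, Igfbp6 and Igfbp4 stood above the other 6 genes in IP. Over the 30 libraries of each fraction, Igfbp6 averaged 205.5 ± 29.3 CPM per kilobase in IP and 166.1 ± 10.2 in Input (SD), and Igfbp4 averaged 132.9 ± 38.7 in IP and 54.4 ± 3.13 in Input. The next gene in Input was Igfbp2, at 8.81 ± 3.07 CPM per kilobase in IP and 42.1 ± 3.85 in Input. Igfbp5 and Igfbp3 were at 6.06 and 6.02 CPM per kilobase in IP and at 8.67 and 7.34 in Input. The receptor genes were lower, with Igf1r at 1.90 in IP and 1.16 in Input and Igf2r at 1.85 in IP and 1.53 in Input. The ligand gene Igf1 was lowest, at 0.0486 CPM per kilobase in IP and 0.376 in Input.

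**Figure D1:**
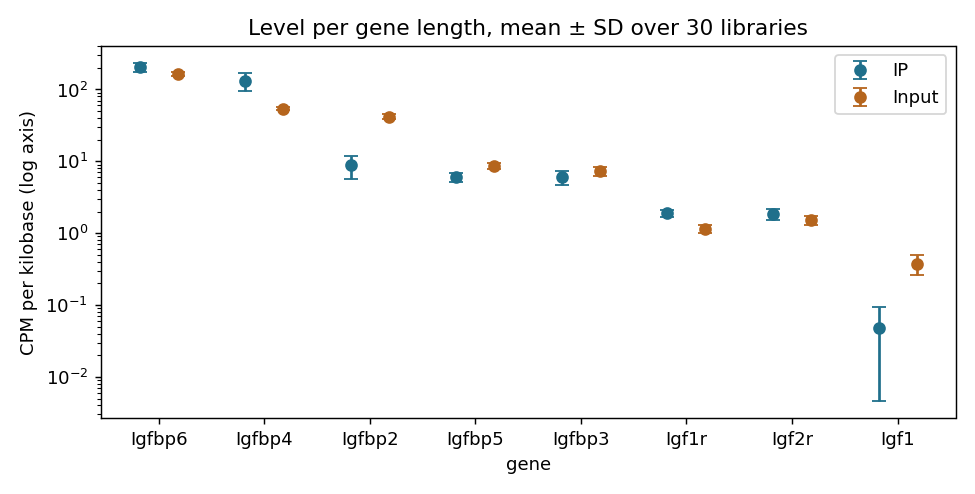
CPM per kilobase of gene model on a log axis for the 8 genes, with points at the mean of 30 IP (left of each pair) and 30 Input libraries and bars at ± SD. Igfbp6 and Igfbp4 lie highest in IP, at 205.5 and 132.9, and Igf1 lowest at 0.0486.

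Set against bulk tissue, 4 genes were higher in IP (Igfbp4, Igf1r, Igfbp6 and Igf2r) and 4 were lower (Igf1, Igfbp2, Igfbp5 and Igfbp3). Igfbp4 is given here without a test, and the other 7 all passed, in a comparison where 75.4% of all genes passed, so the count says little about these genes. Igfbp4 had the highest log2 fold change of the 8, at 1.23 ± 0.02, with a mean of 509.1 CPM in IP and 208.3 CPM in Input. Igf1r was higher by 0.72 ± 0.05 (adjusted p = 1.34e-21), Igfbp6 by 0.30 ± 0.02 (adjusted p = 6.77e-20) and Igf2r by 0.27 ± 0.06 (adjusted p = 4.67e-05). Igfbp2 fell by 2.31 ± 0.06 on the log2 scale (adjusted p = 5.83e-41) and Igfbp5 fell by 0.52 ± 0.04 (adjusted p = 2.27e-20). Igfbp3 fell by 0.29 ± 0.07 (adjusted p = 0.000173). The median over all genes tested was -0.08. Among other sources, a difference between libraries can come from fewer cells of a type or from less of the RNA per cell, and these cannot be told apart here.

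Igfbp4 lies on chromosome 11 at 98932070 to 98945218 in the deposited table, and its protein is a carrier known to be cut by the protease PAPP-A. In IP the SA libraries ran from 431.1 to 471.9 CPM with a median of 451.1. The SA:ANH libraries ran from 296.3 to 351.7 CPM, median 325.0, and the ANH libraries from 407.3 to 426.5 CPM, median 418.8. Those of RES ran from 681.2 to 746.8 CPM, median 702.4, and those of NS from 618.3 to 657.2 CPM, median 648.9. The ranges of the 5 groups did not overlap, and the order from the highest was RES, NS, SA, ANH and SA:ANH. The narrowest gap was between SA, whose lowest library had 431.1 CPM, and ANH, whose highest had 426.5 CPM.

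Relative to NS in IP, the log2 fold change of Igfbp4 was -0.49 in SA, -0.97 in SA:ANH, -0.63 in ANH and 0.14 in RES. Against RES it was -0.64 in SA, -1.11 in SA:ANH and -0.77 in ANH. Between the other subtypes it was -0.48 for SA:ANH against SA, -0.34 for SA:ANH against ANH and 0.14 for SA against ANH. These values repeat the pattern for which Igfbp4 was chosen and carry no test. The coefficient of variation among the 6 IP libraries was 3.51% in SA, 5.94% in SA:ANH, 1.70% in ANH, 3.92% in RES and 2.19% in NS. Counting alone gives 0.981%, 1.16%, 1.06%, 0.791% and 0.814% in the same groups, so it came nearest to the spread in ANH. A library held 6363 to 16957 Igfbp4 counts in IP and 4029 to 5820 in Input.

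In Input, where Igfbp4 was open to test, its groups overlapped. SA libraries ran from 181.5 to 207.6 CPM, median 193.5, SA:ANH from 189.0 to 218.5, median 211.1, and ANH from 195.4 to 218.6, median 215.2. RES libraries ran from 204.1 to 226.0 CPM, median 216.6, and NS libraries from 201.7 to 225.9 CPM, median 213.3. Every neighbouring pair in the order RES, NS, ANH, SA:ANH and SA overlapped. The test of any difference among the groups gave an adjusted p of 0.0350, and SA against NS, with the largest difference from NS, gave -0.14 ± 0.04 (adjusted p = 0.0549). For the other 3 subtypes the log2 difference from NS was -0.05 in SA:ANH, -0.02 in ANH and 0.02 in RES, with adjusted p-values of 0.579, 0.882 and 0.842. The 95% intervals for the 4 subtypes lay between -0.22 and 0.10.

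**Figure D2:**
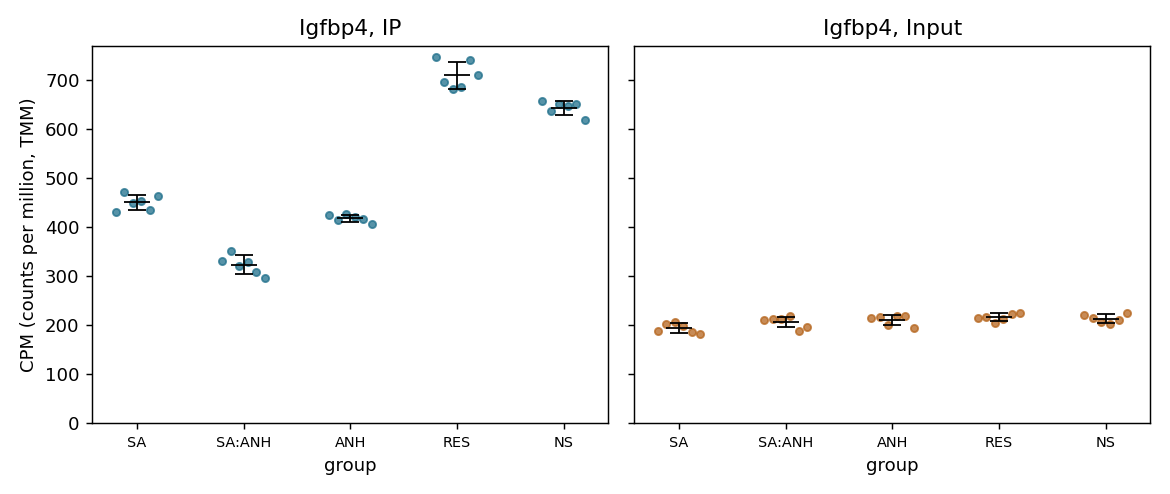
Igfbp4 in CPM for the 6 libraries (points) of each group, with the mean and SD, in IP (left panel) and Input (right panel). In IP the SA:ANH libraries lie lowest, at 296.3 to 351.7, and the RES libraries highest, at 681.2 to 746.8, while all Input libraries lie between 181.5 and 226.0.

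The difference from NS in IP less that in Input was -0.38 for Igfbp4 in SA, -0.95 in SA:ANH, -0.60 in ANH and 0.12 in RES, again with no test. As a share of binding protein RNA, Igfbp4 took 63.0% ± 1.63 of the summed CPM of the 5 binding protein genes in SA IP, 47.4% ± 2.02 in SA:ANH IP, 60.2% ± 1.195 in ANH IP, 72.2% ± 1.99 in RES IP and 69.6% ± 1.17 in NS IP (SD, n = 6 each). In Input the share was 38.5% to 41.6% as group means.

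Layer 5 markers differed among the same IP libraries. Their sum ran from 1080 to 1198 CPM in SA, 586 to 656 in SA:ANH, 705 to 767 in ANH, 885 to 976 in RES and 971 to 1071 in NS, with none of the 5 markers at 0. SA:ANH was lowest for the marker sum and for Igfbp4, while SA was highest for the marker sum and below RES and NS for Igfbp4. By edgeR against NS, 4 of these 5 markers were higher in SA IP and 1 was lower. In SA:ANH IP and in ANH IP 5 of 5 were lower, and in RES IP 1 of 5 was lower. Oligodendrocyte markers, 5 of 5 found and none at 0, summed to 185 to 214 CPM in SA, 127 to 157 in SA:ANH, 611 to 634 in ANH, 875 to 988 in RES and 220 to 262 in NS. Layer 6 markers summed to means of 64.8 CPM in SA, 51.3 in SA:ANH, 70.7 in ANH, 62.9 in RES and 81.7 in NS. For astrocyte markers the means were 36.5, 49.4, 76.9, 83.3 and 67.2 CPM in the same IP groups. The part of these cell types in the level of Igfbp4 was not tested.

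By the shape of the 5 IP group means, the genes most like Igfbp4 among 8744 genes with a mean of at least 10 CPM were Tafa2, Lmo3, Cyp7b1, Slc4a7 and Kcng2. The measure was the root mean square difference of centred log2 means, which was 0.107 for Tafa2 and 0.131 for Kcng2. Tafa2 encodes a secreted peptide, Lmo3 a LIM-domain transcription cofactor, Cyp7b1 a steroid hydroxylase, Slc4a7 a bicarbonate transporter and Kcng2 a potassium channel subunit. Relative to their own mean, Tafa2 stood at -0.24 in SA, -0.67 in SA:ANH, -0.07 in ANH, 0.55 in RES and 0.44 in NS on the log2 scale. Igfbp4 stood at -0.10, -0.58, -0.24, 0.53 and 0.39 in the same groups.

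Several binding protein genes rose in SA:ANH. Relative to NS in IP, 3 of the 7 genes tested rose in SA:ANH and none fell, where 19.7% of all genes passed and 11.3% were higher. Igfbp2, Igfbp6 and Igfbp5 were those 3. In SA 0 of 7 passed by edgeR, where 16.6% of all genes did. In ANH and in RES 1 of 7 passed, Igfbp2 in both and higher in both, where 7.40% of all genes passed in ANH (3.02% higher) and 4.36% in RES (2.25% higher). The 4 comparisons share the NS libraries.

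Igfbp6 lies on chromosome 15 at 102052797 to 102057946, and its protein binds IGF2 in preference to IGF1. In IP the SA libraries ran from 188.5 to 229.6 CPM with a median of 211.8. Those of SA:ANH ran from 276.2 to 304.5 CPM, median 285.2, those of ANH from 195.6 to 238.8, median 212.7, and those of RES from 182.4 to 229.9, median 210.2. NS libraries ran from 208.5 to 236.3 CPM, median 232.1. All 6 SA:ANH libraries lay above every other IP library, and the other 4 groups overlapped. The share of all genes with such a separation is not given. The log2 fold change of SA:ANH was 0.36 ± 0.05 against NS (adjusted p = 3.5e-06), 0.47 ± 0.05 against RES (adjusted p = 5.42e-08), 0.46 ± 0.05 against SA (adjusted p = 8.71e-08) and 0.45 ± 0.05 against ANH (adjusted p = 5.19e-08). In the libraries where Igfbp4 was lowest, Igfbp6 was highest.

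In Input, Igfbp6 averaged 185.3 ± 8.40 CPM in SA, 180.5 ± 9.56 in SA:ANH, 172.1 ± 6.36 in ANH, 191.4 ± 12.5 in RES and 194.1 ± 3.52 in NS (SD, n = 6 each). It was lower in ANH than in NS by edgeR's test, with a log2 fold change of -0.17 ± 0.04 (adjusted p = 0.00971), and all 6 ANH libraries, at most 180.0 CPM, lay below the lowest NS library, at 189.5 CPM. In SA:ANH the difference from NS was larger in IP than in Input by 0.44 ± 0.07 (adjusted p = 7.57e-07).

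Igfbp2 and Igfbp5 are neighbours on chromosome 1, on opposite strands, with 5457 bases and 0 other genes of the table between them. Igfbp2, at 72863662 to 72891633, encodes a carrier with an integrin-binding motif. In IP its SA libraries ran from 5.99 to 11.9 CPM with a median of 8.46. SA:ANH ran from 12.4 to 20.6 CPM, median 16.3, ANH from 8.68 to 15.4, median 13.6, and RES from 10.4 to 14.2, median 11.5. NS ran from 4.59 to 10.2 CPM, median 7.27. All SA:ANH and RES libraries lay above all NS libraries, while SA and ANH overlapped with NS.

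Against NS in IP, Igfbp2 rose in SA:ANH by 1.19 ± 0.19 on the log2 scale (edgeR, adjusted p = 8.01e-06), in ANH by 0.79 ± 0.19 (adjusted p = 0.00541) and in RES by 0.67 ± 0.19 (adjusted p = 0.0308). In SA the difference was 0.24 ± 0.19 (adjusted p = 0.448), with a 95% interval from -0.13 to 0.61. SA:ANH was also above SA, by 0.95 ± 0.18 (adjusted p = 0.000393), and above RES, by 0.53 ± 0.18 (adjusted p = 0.0488). SA was below ANH, with -0.55 ± 0.18 (adjusted p = 0.0272). In Input the group means of Igfbp2 were 51.9 to 59.2 CPM, none of the 4 comparisons with NS passed, and the 95% intervals lay between -0.33 and 0.06. The difference from NS was larger in IP than in Input by 1.29 ± 0.19 in SA:ANH (adjusted p = 6.16e-07), by 0.95 ± 0.19 in ANH (adjusted p = 0.00103) and by 0.75 ± 0.19 in RES (adjusted p = 0.0152).

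Igfbp5, at 72897091 to 72914043, encodes a carrier that binds the extracellular matrix. In IP its SA libraries ran from 28.7 to 37.8 CPM, median 32.7, and its SA:ANH libraries from 39.4 to 47.4 CPM, median 42.5. ANH ran from 32.6 to 41.7 CPM, median 36.4, RES from 30.3 to 43.2, median 38.7, and NS from 28.7 to 35.2, median 30.6. SA:ANH lay wholly above SA and NS and overlapped with ANH and RES. The log2 fold change of SA:ANH was 0.49 ± 0.09 against NS (edgeR, adjusted p = 8.39e-05), 0.37 ± 0.09 against SA (adjusted p = 0.00391) and 0.26 ± 0.09 against ANH (adjusted p = 0.0356). In Input, Igfbp5 was higher in SA, at 56.5 ± 3.74 CPM, than in NS, at 46.4 ± 5.08 CPM, by 0.28 ± 0.07 (adjusted p = 0.0190). Its Input level also lay above NS in SA:ANH by 0.15 ± 0.07, in ANH by 0.15 ± 0.07 and in RES by 0.23 ± 0.07. Those differences did not pass by edgeR, with adjusted p-values of 0.228, 0.285 and 0.0671 in that order. Each subtype thus lay above NS in Input, but only SA passed by edgeR, and the subtypes were not compared with each other in Input. The difference between fractions in SA:ANH was 0.31 ± 0.11 (adjusted p = 0.0525).

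Markers of cell types that are known sources of these carriers in tissue were lower in IP than in Input but not absent. Markers of meningeal and perivascular fibroblasts, 5 of 5 found and none at 0, summed to 6.12 to 9.08 CPM in SA IP, 8.69 to 16.6 in SA:ANH IP, 12.3 to 16.1 in ANH IP, 4.90 to 9.89 in RES IP and 6.95 to 14.6 in NS IP. SA:ANH and NS thus overlapped for these markers, and in Input they summed to 38.3 to 54.2 CPM as group means. The astrocyte marker sum was 31.2 to 46.3 CPM in SA IP, 45.9 to 56.3 in SA:ANH IP, 63.2 to 92.6 in ANH IP, 73.7 to 94.2 in RES IP and 61.7 to 71.9 in NS IP, with none of 5 markers at 0. In ANH and RES IP, where Igfbp2 rose, the means of this sum were 76.9 and 83.3 CPM, against 67.2 CPM in NS IP, and the oligodendrocyte sum given above lay wholly above that of NS. In SA:ANH IP, where Igfbp2 was highest, both sums lay wholly below those of NS. The endothelial marker sum was 2.73 to 4.54 CPM in SA:ANH IP and 1.79 to 2.27 CPM in NS IP. That of red cells was 39.3 to 47.2 CPM in SA:ANH IP and 12.98 to 21.1 CPM in NS IP. By edgeR, 0 of 4 endothelial markers tested passed in SA:ANH against NS in IP, and 3 of 3 red cell markers were higher. The part of these cell types in the results for Igfbp2, Igfbp5 and Igfbp6 was not tested.

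Between subtypes, with Igfbp4 left out, 2 of 7 genes passed and rose in SA:ANH against RES, where 13.8% of all genes passed (8.21% higher), and 3 of 7 rose in SA:ANH against SA, where 9.53% passed (4.89% higher). Against ANH, 2 of 7 rose in SA:ANH, where 17.9% passed (10.8% higher). In SA against ANH 1 of 7 fell, where 23.0% passed (10.2% lower), and in SA against RES and ANH against RES 0 of 7 passed, where 11.6% and 9.21% did. The test of any difference among the 5 groups in IP passed for 3 of 7, Igfbp2, Igfbp5 and Igfbp6, where 33.1% of all genes passed.

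In Input, 1 of 8 genes rose in SA against NS, where 2.83% of all genes passed (1.23% higher), and 1 of 8 fell in ANH, where 2.62% did (1.05% lower). In SA:ANH and RES 0 of 8 passed, where 5.65% and 3.23% did. The test of any difference in Input passed for 4 of 8, where 12.9% of all genes passed. Those were Igfbp4, Igfbp5, Igfbp6 and Igf2r. In the test between fractions, 0 of 7 passed in SA, where 9.05% of all genes did, 3 of 7 in SA:ANH, where 15.2% did, and 1 of 7 in ANH and in RES, where 3.62% did in ANH (1.77% higher) and 2.69% in RES (1.41% higher).

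**Figure D3:**
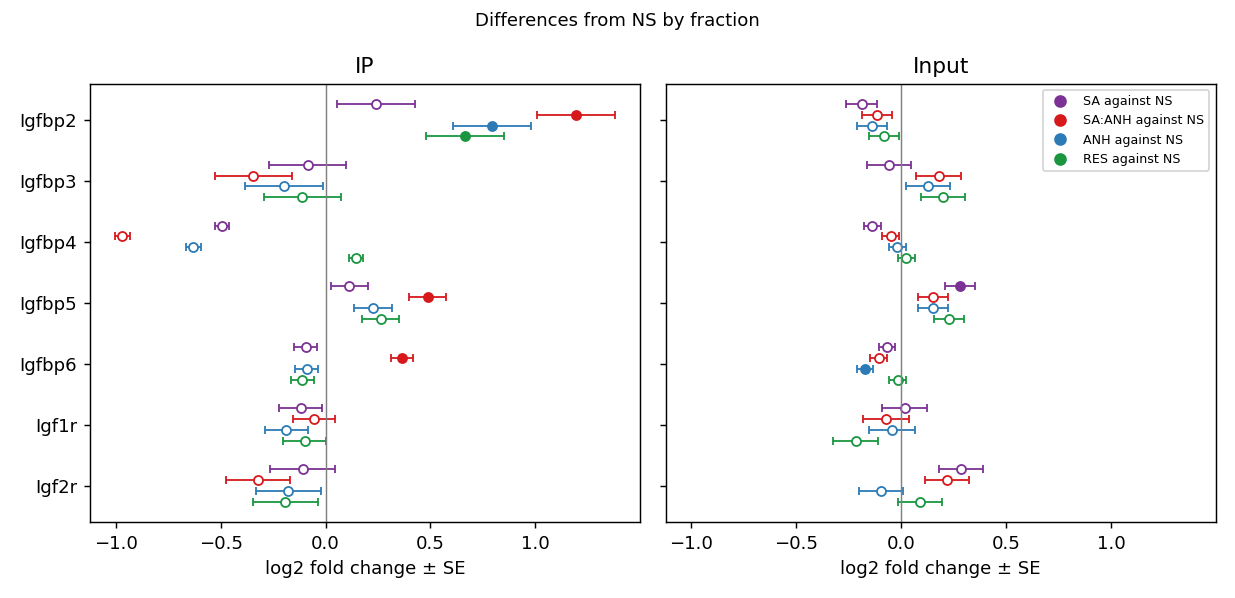
Log2 fold change against NS in IP (left panel) and Input (right panel), with SE as bars, for 7 genes and the 4 subtypes. Filled points passed at an adjusted p under 0.05, open points did not, and Igfbp4 in IP is drawn open because it was not tested. SA:ANH in IP lies at 1.19 for Igfbp2 and at -0.97 for Igfbp4.

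Igfbp3, on chromosome 11 at 7156086 to 7163923, encodes the main carrier in serum, where it forms a complex with the acid-labile subunit. Its IP group means were 12.5 to 16.2 CPM and its Input means 16.0 to 19.1 CPM, and every neighbouring pair of groups overlapped. Against NS the log2 differences in IP lay between -0.34 and -0.08, with adjusted p-values of 0.211 to 0.846 and 95% intervals between -0.70 and 0.27, so that changes of that size could not be told from 0.

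For the receptor genes no comparison with NS passed in either fraction. Igf1r averaged 21.1 ± 2.76 CPM in SA IP, 22.0 ± 1.87 in SA:ANH IP, 20.5 ± 2.51 in ANH IP, 21.6 ± 2.88 in RES IP and 23.2 ± 1.86 in NS IP (SD, n = 6 each). Its differences from NS in IP lay between -0.19 and -0.05, with 95% intervals between -0.39 and 0.14 and adjusted p-values of 0.319 to 0.778 by edgeR. In Input its group means were 11.8 to 13.9 CPM, and adjusted p-values were 0.324 to 0.973.

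Igf2r averaged 16.8 ± 1.30 CPM in SA IP, 14.5 ± 2.47 in SA:ANH IP, 16.4 ± 2.04 in ANH IP, 16.1 ± 5.22 in RES IP and 18.4 ± 2.38 in NS IP (SD, n = 6 each). In Input it averaged 15.4 ± 1.55 CPM in SA, 14.7 ± 1.99 in SA:ANH, 11.8 ± 1.34 in ANH, 13.4 ± 1.16 in RES and 12.7 ± 1.63 in NS. In SA:ANH it lay below NS in IP and above NS in Input, and the difference between fractions was -0.57 ± 0.19 (edgeR, adjusted p = 0.0310). The gene Airn lies on the opposite strand within its span, at a mean of 11.8 counts per library in IP and 10.6 in Input, beside 374 and 326 for Igf2r. The strand setting of the counting is not stated, so reads of the pair cannot be told apart where they overlap.

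The ligand gene Igf1 had 0 to 24 counts per library in IP, with 6 of 30 libraries at 0, and 35 to 117 counts in Input. It was lower in IP by edgeR's test, with a log2 fold change of -2.98 ± 0.28 (adjusted p = 1.22e-14). In Input it averaged 2.26 ± 0.94 CPM in SA, 2.49 ± 0.75 in SA:ANH, 2.42 ± 0.59 in ANH, 2.88 ± 0.95 in RES and 3.20 ± 0.72 in NS (SD, n = 6 each). All neighbouring groups overlapped, and adjusted p-values against NS were 0.369 to 0.841. In IP no comparison with NS passed, and the 95% intervals of the log2 differences ran from -1.78 to 3.03. In SA:ANH IP the coefficient of variation was 67.6%, where counting alone gives 38.0%.

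**Figure D4:**
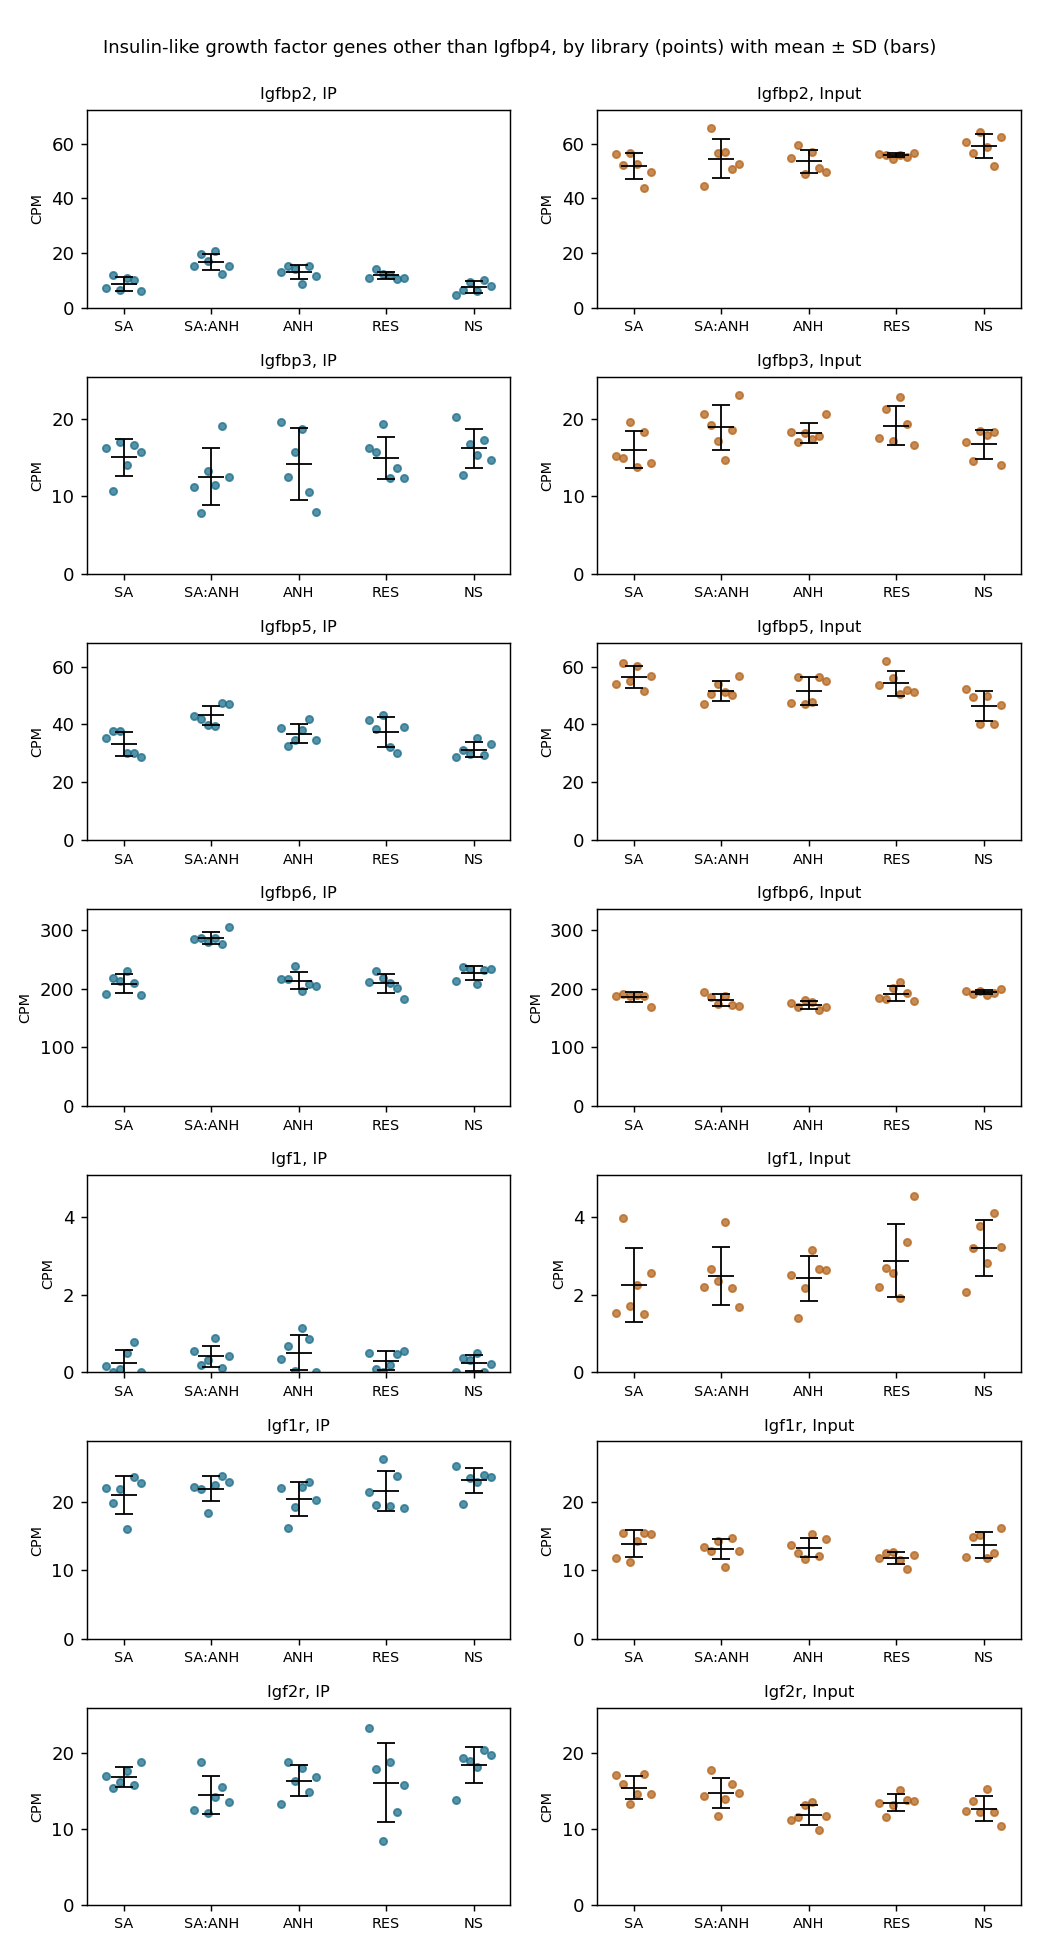
CPM of the 7 other genes for the 6 libraries (points) of each group, with the mean and SD, in IP (left column) and Input (right column), with the same axis for both panels of a gene. In SA:ANH IP, Igfbp6 lies at 276.2 to 304.5, above every other IP library.

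Igfbp2 was the other gene that passed in more than 1 of the 4 IP comparisons with NS, and the genes most like it by the same measure were S100a6, Cacng2, Hmgb3, Pak5 and Dusp15, at root mean square differences of 0.170 to 0.195. S100a6 encodes a calcium-binding protein and Cacng2 an auxiliary subunit of AMPA receptors.

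Downstream and around these genes, a list of 43 other genes of insulin-like growth factor and insulin signalling was examined by role, of which 35 were tested in IP. In SA against NS 1 rose and 6 fell, in SA:ANH 4 rose and 3 fell, in ANH 3 rose and 2 fell, and in RES 2 rose and 1 fell. Those are 7, 7, 5 and 3 of the 35 genes, where 16.6%, 19.7%, 7.40% and 4.36% of all genes passed in the same comparisons. The list's median log2 fold change was -0.05 in SA, -0.05 in SA:ANH, -0.01 in ANH and -0.04 in RES, beside 0.02, 0.01, 0.00 and 0.01 over all genes tested. Htra1, a secreted protease that cuts some binding proteins, fell in SA IP to 3.32 ± 0.75 CPM, against 7.66 ± 1.97 in NS IP (log2 fold change -1.19 ± 0.17, adjusted p = 2.07e-06). It was higher in RES IP, at 11.8 ± 2.23 CPM (0.63 ± 0.16, adjusted p = 0.0156). Its level in Input was 221 to 246 CPM as group means, and it was lower in SA than in NS there too (-0.15 ± 0.04, edgeR, adjusted p = 0.0113). The difference between fractions was -1.06 ± 0.14 in SA (adjusted p = 8.29e-08) and 0.72 ± 0.12 in RES (adjusted p = 9.44e-05). The astrocyte marker sum in IP averaged 36.5 CPM in SA and 83.3 in RES, against 67.2 in NS. By edgeR, 4 of 5 of these markers were lower in SA and 1 of 5 higher in RES. In SA:ANH IP the sum averaged 49.4 CPM, with 2 of 5 lower, and in ANH IP 76.9 CPM, with 1 of 5 higher. Htra1 did not pass against NS in SA:ANH IP or ANH IP. The part of astrocytes in the level of Htra1 was not tested.

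The adaptor gene Irs2, whose protein joins the receptors to PI3K, fell in IP by 0.27 ± 0.08 in SA (adjusted p = 0.0112), by 0.47 ± 0.08 in SA:ANH (adjusted p = 1.43e-05) and by 0.35 ± 0.08 in ANH (adjusted p = 0.0025). The kinase gene Akt2 fell by 0.28 ± 0.07 in SA (adjusted p = 0.00547) and by 0.30 ± 0.07 in RES (adjusted p = 0.00964). Eif4ebp1, a repressor of translation that mTOR inactivates, rose by 0.32 ± 0.10 in SA (adjusted p = 0.0323) and by 0.49 ± 0.10 in SA:ANH (adjusted p = 0.000641). Foxo6, a transcription factor of the FOXO family, rose by 0.38 ± 0.10 in SA:ANH (adjusted p = 0.00498), by 0.52 ± 0.10 in ANH (adjusted p = 0.00068) and by 0.45 ± 0.10 in RES (adjusted p = 0.00466), all by edgeR's test. Foxo6 also rose in RES in Input, by 0.35 ± 0.09 (edgeR, adjusted p = 0.0213). Its difference between fractions passed in ANH, at 0.51 ± 0.13 (edgeR, adjusted p = 0.0170), and did not pass in RES.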

How the data were processed

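RNA-seq libraries of mPFC ribosome pulldown (IP) and bulk tissue (Input) were prepared, per the labels' protocols, with SMART-Seq v4 and TruSeq v2 kits and sequenced from both ends for 100 bases. The authors deposited expected counts, estimates that can be fractional, for 55414 genes. Trimmomatic 0.32, Bowtie2 2.2.3, TopHat2 2.0.13 and mm10 are named in the submitters' processing notes. The sources used here do not name the counting tool, its strand setting or the build of the table's gene positions, which differ from those of mm10. Positions are printed as deposited, and promoters are from RefSeq on GRCm38.p6.

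Columns were matched to samples by name. Expected counts were rounded and tested with edgeR 4.0.16 (R 4.3.3; TMM, filterByExpr with a minimum count of 10, quasi-likelihood test, Benjamini-Hochberg adjustment at 0.05), with 30 libraries of 5 groups per fraction and no covariate. This left 16670 genes in IP, 18170 in Input and 18937 in the fit of all 60 libraries, which gave IP against Input, the test between fractions and all CPM. CPM may therefore differ slightly in scale from the fold changes within a fraction. Per-kilobase levels use the deposited gene lengths. Intervals are 95%. Reads without molecular identifiers are not independent molecules, so counting errors cover counting only. Library totals were 19078906 to 27073413 counts.

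The 8 genes, the list of 43 pathway genes, the markers and the tests were chosen with earlier results of these data known. All 8 genes are named in every comparison, from the pathway list up to 3 with the smallest p per comparison and their values elsewhere, and the 5 genes most like Igfbp4 and any other gene that passed in at least 2 IP comparisons with NS. Not every gene this rule allows is reported here. Alternatives were RLE factors, DESeq2 1.42.0, no filter on low counts, only the libraries compared, and the replicate number as a block. Of 150 pairs of libraries within groups none looked like a repeated library, with a chi-square of at least 7.02 times its degrees of freedom. The scripts were tested on simulated data.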

Additional observations from a re-analysis of the deposited data

Results flagged for a closer look

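In 5 of the 80 sets of 6 libraries examined, 8 genes in 10 groups, a library stood apart from the others of its group by Dixon's test, which chance does in about 5% of sets. In IP these were Igf1r in SA:ANH replicate 3 at 18.4 CPM, Igf2r in NS replicate 1 at 13.81 CPM and Igfbp6 in SA:ANH replicate 6 at 304.5 CPM. In Input they were Igfbp3 in ANH replicate 6 at 20.63 CPM and Igfbp6 in SA replicate 6 at 168.4 CPM.

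The difference from NS was unlike in IP and Input by edgeR's test for 3 genes. In SA:ANH the difference in IP less that in Input was 1.29 for Igfbp2, 0.44 for Igfbp6 and -0.57 for Igf2r on the log2 scale. For Igfbp2 it was also 0.95 in ANH and 0.75 in RES.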

How the results depend on the processing

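Over the results of the 8 genes, 788 values under the alternatives were counted as unchanged, 8 lost and 7 gained significance. None that passed under either the main or the alternative setting turned in direction. Unchanged meant the same side of the threshold or, for Igfbp4 where it was not tested, the same direction with a small shift. Direction was not compared for values that passed under neither setting, or for the test of any difference. Under DESeq2 the number of genes that passed in Input against NS was 808 in SA (515 with edgeR), 728 in ANH (476) and 902 in RES (587). Of the genes described here, 2 passed under DESeq2 in SA Input (1 with edgeR), 1 in RES Input (0) and 2 in RES IP (1). The genes gained were Igfbp4 in SA Input (adjusted p = 0.0217) and Igfbp5 in RES Input (0.0332) and RES IP (0.0465). With RLE factors, and also with no filter, 1 gene passed in SA:ANH against RES IP and 1 in SA:ANH against ANH IP, against 2 in each by edgeR with TMM. Igfbp2 against RES was lost (adjusted p = 0.0587 and 0.0863), as was Igfbp5 against ANH (0.0528 and 0.0902). With no filter the test of any difference in Input passed for 2 genes in place of 4, without Igf2r (0.0818) and Igfbp4 (0.0658), and Igf2r in SA:ANH lost the difference between fractions (0.0638). That of Igfbp5 in SA:ANH passed with RLE, DESeq2 and the 24 libraries compared (0.0455, 0.0345 and 0.0329). The causes were not tested. The IP fold changes of Igfbp4 moved little, for SA:ANH against NS between -0.98 and -0.97.

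Deviations of libraries of equal replicate number correlated at 0.03 on average in IP, against -0.01 for unequal numbers, at 0.04 against -0.01 in Input, and at 0.05 against -0.01 between IP and Input of a group. Single pairs reached 0.21 and fell to -0.06, -0.16 and -0.03, so the number was not taken to pair libraries. That 12 of 30 IP libraries were best matched by the Input library of their own number, among 6 each, is a hint of a shared source from the data and not from the labels. The replicate block moved counts of genes called by 0.984 to 1.30 times, ended the call for Igf2r in Input (0.052) and gave Igfbp5 in SA:ANH a difference between fractions (0.043). Counts of Igf1 in IP were few, at 0 to 24 per library.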

Other observations

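Igfbp7, a neighbour of the binding proteins in name that binds these ligands weakly, averaged 7.90 ± 1.38 CPM in SA:ANH IP and 5.99 ± 1.56 CPM in NS IP (SD, n = 6 each), and 23.4 ± 2.82 CPM in SA:ANH Input and 27.4 ± 2.19 CPM in NS Input. It was lower in IP than in Input, with a log2 fold change of -1.98 ± 0.07 (edgeR, adjusted p = 4.22e-35).

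The ligand gene Igf2 fell in RES Input to 9.92 ± 1.33 CPM, against 15.8 ± 1.87 CPM in NS Input (log2 fold change -0.67 ± 0.11, edgeR, adjusted p = 0.000181, n = 6 each). The highest RES Input library had 11.4 CPM and the lowest NS Input library 13.9 CPM. Markers of meningeal and perivascular fibroblasts also differed in these libraries, with a sum of 29.6 to 43.0 CPM in RES Input and 50.5 to 58.4 CPM in NS Input, 2 of 5 lower by edgeR and none at 0. The sum lay wholly below NS Input in SA Input too, at 35.2 to 46.3 CPM, and in SA:ANH Input, at 41.7 to 48.0 CPM. Of the single markers, 1 of 5 was lower by edgeR in SA Input and 0 of 5 in SA:ANH Input. Igf2 did not pass against NS in those 2 groups. The part of these cells in the level of Igf2 was not tested. In IP Igf2 stood at 0.38 to 1.42 CPM as group means.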
